A study of Homo sapiens with 6 samples.

Results

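Transcript levels of 31 integrin and laminin genes were examined in HT-1080 cells, a human fibrosarcoma line. The genes, 13 coding integrin alpha subunits, 8 coding integrin beta subunits and 10 coding laminin chains, were picked by symbol from a list that does not hold every gene of the families. Of the 31, 30 were among the 26286 genes of the deposited tables, and ITGA8 was not analysed here. The cells had been treated for 48 h with the vehicle DMSO, with 2 µM palbociclib, an inhibitor of the cell cycle kinases CDK4 and CDK6, or with 500 nM pimasertib, an inhibitor of the ERK-activating kinases MEK1 and MEK2. Each group had 2 libraries, 6 in all, and all groups were the same line in the same medium. The labels do not say that replicates 1 and 2 came from separate cultures, so a p-value here reflects the spread of these libraries alone, and that spread may be technical.

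Integrins are membrane receptors made of 1 alpha and 1 beta subunit, and the pairing sets the ligand: ITGA3, ITGA6 and ITGA7 go into laminin receptors, ITGA1, ITGA2, ITGA10 and ITGA11 into collagen receptors, and ITGA5 and ITGAV into receptors that read the RGD peptide of fibronectin, vitronectin and related proteins. ITGB1 is the beta partner of most of these alpha subunits. Laminins are cross-shaped trimers of an alpha, a beta and a gamma chain that build the basement membrane sheet, and fibroblast-like tumour cells both secrete them and migrate on them.

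Library totals ran from 13607490 to 17500655 counts, and 3 counts in a library corresponded to 0.168 to 0.22 CPM (counts relative to the library total, scaled by TMM). The line's label fitted its markers: 6 of 7 mesenchymal markers were above 10 CPM in every library, while S100A4 was at 0.231 to 5.71 CPM. The summed level of 8 leukocyte markers was 0.388 to 1.1 CPM, with none of the 8 above 1 CPM. The 6 epithelial markers in the tables summed to 1.9 to 12.0 CPM, with CDH1 at 0 in both DMSO libraries and KRT19 at 9.18 CPM in palbociclib replicate 2. The proliferation marker MKI67 went from 1172 and 816 CPM in DMSO to 195 and 141 with palbociclib and 225 and 222 with pimasertib. The ERK output gene SPRY4 was at 68.7 and 50.9 CPM in DMSO, 47.9 and 45.3 with palbociclib and 2.07 and 2.72 with pimasertib. DUSP6, the other ERK output gene checked, was too low in DMSO to show a fall. It was at 0 and 0.473 CPM in DMSO, 0.367 and 0.28 with palbociclib and 0 and 0 with pimasertib. In bulk RNA, fewer cells of a type and less RNA per cell cannot be told apart.

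Of the 30 genes, 22 were above the filter level of 0.617 CPM in every library, 6 were above it in some libraries, and ITGA9 and LAMC3 were left out of testing at no more than 0.147 and 0.129 CPM. ITGA11 and LAMA2 passed the filter through 1 group alone, pimasertib and palbociclib respectively. The adhesion repertoire of untreated cells was led by few genes. On the FPKM scale, which divides by gene length and so allows genes to be compared, ITGA3 was highest in DMSO at 347 and 521 FPKM. LAMB3 followed at 304 and 426 FPKM, ITGA6 at 271 and 339 FPKM and ITGB1 at 197 and 361 FPKM. The ranges of neighbours in this order overlapped across the DMSO libraries. Within each DMSO library ITGA3 was above LAMB3 and LAMB3 above ITGA6, while ITGA6 and ITGB1 changed places. Differences between genes were not tested.

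In pimasertib the balance of laminin receptor and laminin beta chain transcripts differed from that in DMSO. ITGA6, LAMB3 and ITGA2 fell, and LAMB2, ITGAV, ITGA3, LAMC1, ITGB4 and ITGA11 rose. That is 9 of 28 tested members, 6 higher and 3 lower, by the edgeR quasi-likelihood test at an adjusted p under 0.05. Over all 14839 tested genes, 22.8% passed, 11.1% higher and 11.7% lower. The members' median log2 difference was 0.49, against 0.00 over all tested genes. In the same test palbociclib gave no call among the members, where 3.54% of all tested genes passed, 1.11% higher and 2.44% lower. The 9 pimasertib calls include ITGA11, which passed the filter through pimasertib alone, the group in which it was highest. The members' count and median in pimasertib are therefore partly selected for a rise. With the stricter filter on low counts, under which ITGA11 was not tested, the count was 8, 5 higher and 3 lower.

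**Figure D1:**
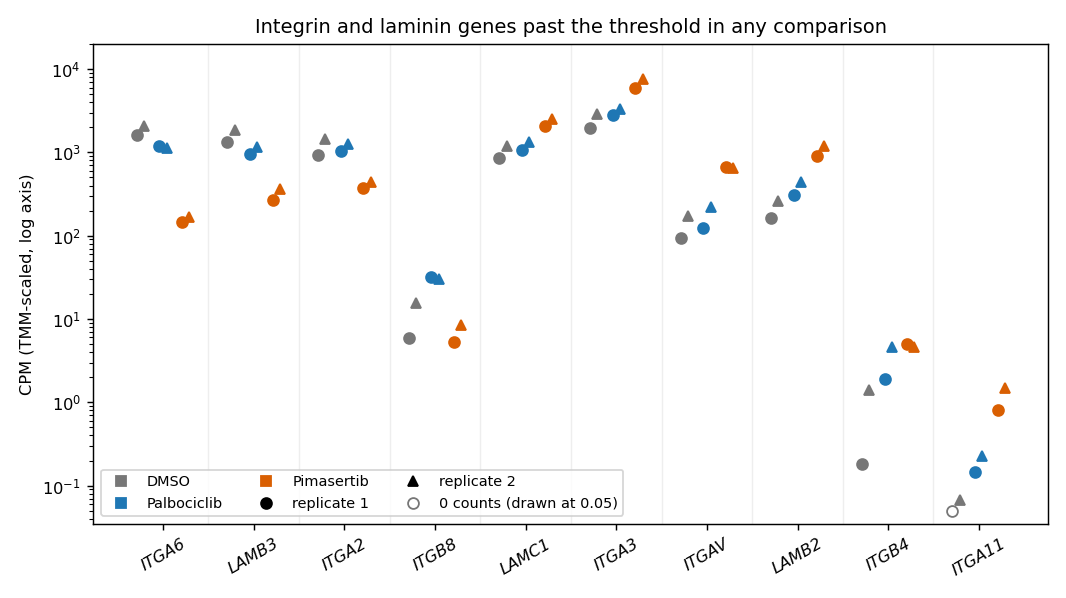
CPM on a log axis of the 10 members past the threshold in any of the 3 comparisons, 1 point per library, coloured by treatment and shaped by replicate. Both pimasertib libraries of ITGA6 (144 and 168 CPM) lie below the other 4 libraries, and both of LAMB2 (902 and 1207 CPM) lie above them.

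Among the laminin-binding alpha subunits, ITGA6 (GRCh37 chr2:173292082-173371181, plus strand) and ITGA3 (GRCh37 chr17:48133332-48167845, plus strand) moved in opposite directions. ITGA6, which pairs with ITGB1 or ITGB4, was at 1633 and 2048 CPM in DMSO, 1195 and 1114 with palbociclib and 144 and 168 with pimasertib. The 3 groups did not overlap, with pimasertib far below the others. ITGA6 was 11.8-fold lower in pimasertib than in DMSO (log2 fold change -3.56, SE 0.27, adjusted p = 3.86e-05). The call held in every leave-one-out fit and under every other alternative tried. ITGA3 was at 1938 and 2903 CPM in DMSO, 2847 and 3318 with palbociclib and 5874 and 7607 with pimasertib. Both pimasertib libraries were above the other 4, while palbociclib overlapped DMSO. ITGA3 rose 2.79-fold in pimasertib (log2 1.48, SE 0.30, adjusted p = 0.00636), and without pimasertib replicate 2 the adjusted p was 0.0673. ITGA7, the laminin receptor subunit of muscle, stayed at or below 1.04 CPM in every library, with 0 to 16 counts.

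The balance between the 2 receptors can be read within each library, since both genes share its depth. The FPKM ratio of ITGA3 to ITGA6 was 1.28 and 1.53 in the DMSO libraries, 2.58 and 3.22 in those of palbociclib and 44.1 and 48.9 in those of pimasertib. The ratio was lowest in both DMSO libraries and highest in both pimasertib libraries, with palbociclib between and no overlap. ITGA6 made up 29.5% ± 3.43 (SD, n = 2) of the summed FPKM of the 12 integrin alpha genes in DMSO, 18.4% ± 3.18 in palbociclib and 1.64% ± 0.0976 in pimasertib. ITGA3 made up 41.3% ± 0.385, 52.6% ± 0.828 and 76.2% ± 1.03 in the same order. The shares and ratios are descriptions of the levels above and were not tested separately. In rank by mean FPKM among the 30 members, ITGA6 went from 3 in DMSO to 4 in palbociclib and 12 in pimasertib, and ITGA3 was 1 in all 3 groups.

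**Figure D2:**
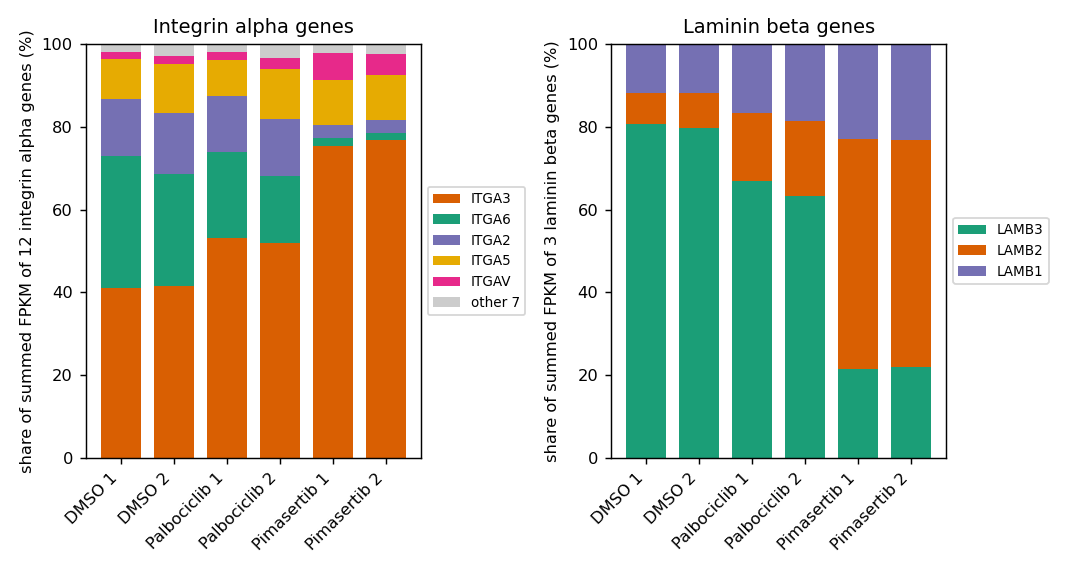
Stacked bars of each library's summed FPKM, as the percentage taken by each of 12 integrin alpha genes (left, 7 minor genes pooled) and each of 3 laminin beta genes (right). In pimasertib ITGA3 takes 76.2% ± 1.03 of the alpha sum and LAMB2 takes 55.1% ± 0.416 of the beta sum.

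Among the collagen-binding alpha subunits, ITGA2 (GRCh37 chr5:52285156-52390609, plus strand) fell in pimasertib and was the only one of the 4 above 100 CPM. It was at 937 and 1459 CPM in DMSO, 1053 and 1266 with palbociclib and 373 and 444 with pimasertib. Pimasertib lay below both other groups, and the palbociclib libraries lay within the DMSO range. ITGA2 was 2.93-fold lower (log2 -1.55, SE 0.28, adjusted p = 0.00379), with an adjusted p of 0.0547 without pimasertib replicate 1. ITGA11, a collagen receptor subunit of mesenchymal cells, had counts of 0 and 1 in the DMSO libraries, 2 and 4 in those of palbociclib and 14 and 23 in those of pimasertib. The pooled ratio of pimasertib to DMSO was 35.2, with an exact 95% counting interval of 5.94 to 1429, and the adjusted p was 0.0213. Since ITGA11 passed the filter through pimasertib alone, its call supports nothing about the family. It was also lost without DMSO replicate 1 (adjusted p = 0.116), pimasertib replicate 1 (0.0676) or pimasertib replicate 2 (0.163).

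ITGA1 was at 11.3 and 31.5 CPM in DMSO, 19.1 and 47.5 with palbociclib and 23.4 and 33.0 with pimasertib. ITGA10 was at 21.1 and 65.3 CPM in DMSO, 36.0 and 97.9 with palbociclib and 60.7 and 95.7 with pimasertib. In both genes replicate 2 was above replicate 1 in every group, all groups overlapped, and neither drug's difference passed. For ITGA10 in pimasertib the 95% interval of the log2 difference was -0.30 to 2.02. ITGA1 overlaps PELO on the same strand, which had up to 643 counts, so reads from a stretch shared by both cannot be told apart.

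Of the alpha subunits of RGD receptors, ITGAV rose in pimasertib and ITGA5 did not pass. ITGAV (GRCh37 chr2:187454792-187545628, plus strand), which pairs with ITGB1, ITGB3, ITGB5, ITGB6 or ITGB8, was at 93.8 and 174 CPM in DMSO, 124 and 219 with palbociclib and 662 and 652 with pimasertib. Both pimasertib libraries exceeded all others, and palbociclib overlapped DMSO. ITGAV rose 4.90-fold in pimasertib (log2 2.29, SE 0.35, adjusted p = 0.00153), and the call held in every leave-one-out fit. ITGA5, the fibronectin receptor subunit, was at 414 and 752 CPM in DMSO, 426 and 695 with palbociclib and 764 and 986 with pimasertib. Its pimasertib libraries lay above the DMSO libraries by a narrow gap, and the log2 difference of 0.59 (95% interval -0.16 to 1.33) did not pass (adjusted p = 0.237). ITGA4, a receptor subunit for fibronectin and VCAM1, was at 37.8 and 78.9 CPM in DMSO, 31.2 and 51.5 with palbociclib and 54.3 and 67.1 with pimasertib, with all groups overlapping DMSO. ITGAE, known from intraepithelial lymphocytes, was at 11.1 and 10.9 CPM in DMSO, 8.87 and 10.0 with palbociclib and 8.07 and 10.4 with pimasertib. It overlaps GSG2 on the opposite strand, and the use of strand in counting is not stated in the labels or notes.

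Of the beta subunits, 1 of 8 passed in pimasertib. ITGB1, the common partner, was at 759 and 1390 CPM in DMSO, 919 and 1584 with palbociclib and 1930 and 2341 with pimasertib. Both pimasertib libraries were above the other 4, yet the log2 difference of 0.99 (SE 0.35) had an adjusted p of 0.0676. DESeq2 called ITGB1 higher, as did the authors' deposited table. ITGB5, a partner of ITGAV, was at 277 and 549 CPM in DMSO, 318 and 550 with palbociclib and 466 and 668 with pimasertib, and the groups overlapped (log2 0.46 in pimasertib, 95% interval -0.36 to 1.27). ITGB3, another ITGAV partner, was at 11.5 and 17.5 CPM in DMSO, 15.2 and 20.5 with palbociclib and 19.2 and 19.8 with pimasertib. Its pimasertib libraries were above both DMSO libraries, with a log2 difference of 0.43 and an adjusted p of 0.272.

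ITGB4 (GRCh37 chr17:73717408-73753899, plus strand), the partner of ITGA6 in hemidesmosomes, was the called beta subunit, and its level was low. It was at 0.182 and 1.4 CPM in DMSO, 1.91 and 4.59 with palbociclib and 4.96 and 4.59 with pimasertib. Every drug-treated library was above both DMSO libraries, the lower of which held 3 counts. The pimasertib call (log2 2.59, SE 0.73, adjusted p = 0.0295) was lost without DMSO replicate 1 (adjusted p = 0.0808), pimasertib replicate 1 (0.12) or pimasertib replicate 2 (0.129). ITGB4 overlaps GALK1 on the opposite strand, which had up to 753 counts, so reads of the 2 genes cannot be told apart if strand was not used. On the FPKM scale ITGB4 stayed below 1 in every library while ITGA6 was at 24.8 FPKM or more.

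ITGB8, whose product with ITGAV binds latent TGF-beta, was at 5.83 and 15.6 CPM in DMSO, 31.9 and 30.1 with palbociclib and 5.24 and 8.41 with pimasertib. Both palbociclib libraries lay above all 4 others, and pimasertib overlapped DMSO. The palbociclib difference from DMSO (log2 1.54, SE 0.40) had an adjusted p of 0.067 and so did not pass, while DESeq2, limma-voom and the authors' deposited table called it higher. ITGB2, the leukocyte beta subunit, was at 2.2 to 8.91 CPM over the 6 libraries, and ITGB6 and ITGB7 were at 0.293 to 2.33 CPM. None of these 3 passed in any comparison, though DESeq2 called ITGB2 lower in pimasertib than in palbociclib. Both pimasertib libraries of ITGB2 were below the 4 others, and its edgeR log2 difference between the drugs was -1.48 (adjusted p = 0.0584).

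Among the laminin beta chains, LAMB3 and LAMB2 exchanged places in pimasertib. LAMB3 (GRCh37 chr1:209788215-209825811, minus strand), a chain of the laminin that anchors epithelia to the dermis, was at 1333 and 1866 CPM in DMSO, 963 and 1167 with palbociclib and 266 and 365 with pimasertib. The 3 groups did not overlap. LAMB3 was 5.07-fold lower in pimasertib than in DMSO (log2 -2.34, SE 0.29, adjusted p = 0.00046). LAMB2 (GRCh37 chr3:49158547-49170551, minus strand), a chain known from the kidney glomerulus and the neuromuscular junction, was at 164 and 263 CPM in DMSO, 308 and 439 with palbociclib and 902 and 1207 with pimasertib. Here too the groups did not overlap, in the reverse order. LAMB2 rose 4.93-fold (log2 2.30, SE 0.31, adjusted p = 0.000789). Both calls held in every leave-one-out fit and under every other alternative tried. LAMB1, the widely expressed beta chain, was at 263 and 370 CPM in DMSO, 322 and 460 with palbociclib and 381 and 520 with pimasertib, and its log2 difference of 0.51 in pimasertib did not pass (95% interval -0.12 to 1.13). LAMB1 overlaps DLD on the opposite strand, which had up to 1437 counts.

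Within libraries, the FPKM ratio of LAMB3 to LAMB2 was 10.7 and 9.34 in the DMSO libraries, 4.12 and 3.50 in those of palbociclib and 0.388 and 0.399 in those of pimasertib. LAMB3 was the larger of the pair in all 4 DMSO and palbociclib libraries and the smaller in both pimasertib libraries. Of the summed FPKM of LAMB1, LAMB2 and LAMB3, LAMB3 held 80.1% ± 0.666 (SD, n = 2) in DMSO, 65.2% ± 2.62 in palbociclib and 21.7% ± 0.248 in pimasertib. LAMB2 held 8.03% ± 0.71, 17.2% ± 1.29 and 55.1% ± 0.416. The sum itself was 377 and 535 FPKM in DMSO, 334 and 437 with palbociclib and 292 and 383 with pimasertib, so its ranges overlapped while its makeup did not.

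LAMC1 (GRCh37 chr1:182992595-183114727, plus strand), the gamma chain of most laminins, was at 854 and 1204 CPM in DMSO, 1054 and 1325 with palbociclib and 2083 and 2498 with pimasertib. Both pimasertib libraries were above all others. LAMC1 rose 2.23-fold (log2 1.15, SE 0.27, adjusted p = 0.0139), and the call was lost without DMSO replicate 1 (adjusted p = 0.0999), pimasertib replicate 1 (0.0506) or pimasertib replicate 2 (0.109). By mean FPKM, LAMC1 ranked 6 among the members in DMSO and 3 in pimasertib, behind ITGA3 and ITGB1.

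None of the 5 laminin alpha chains passed in any comparison. LAMA4, the alpha chain of vessels and mesenchyme, was at 138 and 188 CPM in DMSO, 197 and 255 with palbociclib and 181 and 280 with pimasertib. LAMA5, the alpha chain of most adult epithelia, was at 185 and 268 CPM in DMSO, 255 and 362 with palbociclib and 140 and 222 with pimasertib. LAMA4 and LAMA5 together held 87.1% to 92.4% of the FPKM of the 5 alpha genes in DMSO, and their groups overlapped in pimasertib and DMSO. LAMA5 differed between the drugs by log2 -0.77, with pimasertib lower and an adjusted p of 0.144. It overlaps ADRM1 on the opposite strand, which had up to 1292 counts, and as for LAMB1 reads of the pair cannot be told apart if strand was not used. LAMA1, the alpha chain of early embryos, was at 51.9 and 35.5 CPM in DMSO, 63.1 and 40.9 with palbociclib and 40.8 and 45.7 with pimasertib. LAMA1 was the only laminin of those tested with replicate 1 above replicate 2 in DMSO. LAMA3, the usual alpha partner of LAMB3, was at 5.17 and 8.45 CPM in DMSO, 9.61 and 23.3 with palbociclib and 10.9 and 16.7 with pimasertib. All 4 drug-treated libraries were above both DMSO libraries for LAMA3, but the log2 differences of 1.28 in palbociclib (adjusted p = 0.139) and 1.02 in pimasertib (adjusted p = 0.107) did not pass. LAMA2, the alpha chain of muscle, was at 0.243 to 0.952 CPM.

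**Figure D3:**
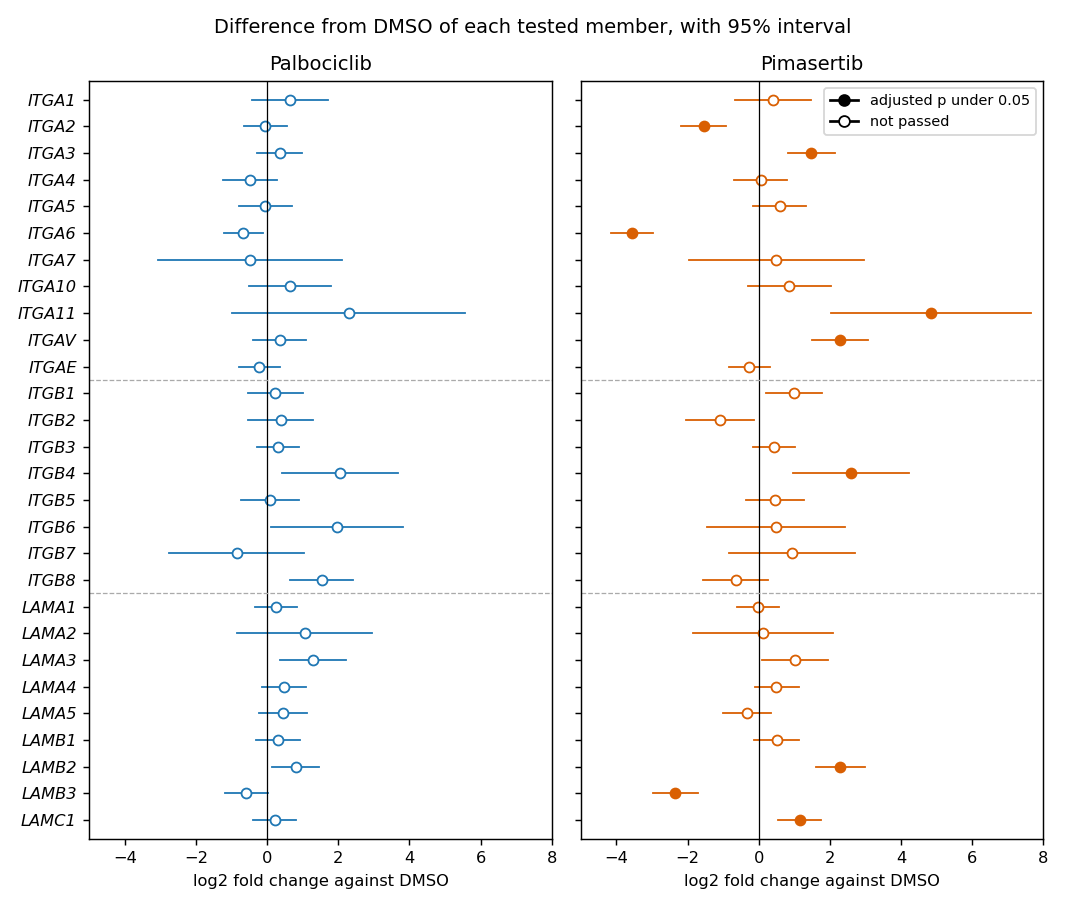
Log2 fold change against DMSO with its 95% interval for each of the 28 tested members in palbociclib (left) and pimasertib (right), with filled points for an adjusted p under 0.05. No palbociclib point is filled, and the 9 filled pimasertib points run from -3.56 for ITGA6 to 4.84 for ITGA11.

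In the edgeR fit of all 6 libraries with filtered genes and no replicate block, palbociclib gave 0 member calls. Of the 28 members, 6 had an unadjusted p under 0.05. The share of all tested genes at that level is not given here, so the 6 have no rate to be read against. DESeq2 and limma-voom each gave 1 call, ITGB8. The 6 were ITGB8, LAMA3, ITGB4, ITGA6, LAMB2 and ITGB6. ITGA6 was lower in palbociclib by log2 -0.67 (95% interval -1.21 to -0.13, adjusted p = 0.172) and LAMB3 by -0.59 (-1.20 to 0.02, adjusted p = 0.297), while LAMB2 was higher by 0.81 (0.14 to 1.47, adjusted p = 0.189). These 3 genes had no overlap between the palbociclib and DMSO libraries. The same held for other members far from the threshold, such as LAMA4 (adjusted p = 0.412) and ITGAE (0.721). With 2 libraries per group a lack of overlap alone says little, and its share over all genes is not given here. For ITGA2 the log2 difference was -0.05, and its interval of -0.66 to 0.56 still allows a change in either direction. Without DMSO replicate 2 the count was 3 (ITGB4, ITGB8 and LAMB2), and without palbociclib replicate 1 it was 1 (LAMA3). Both drugs were compared with the same DMSO libraries, so their differences from DMSO are not independent. With a replicate block 10 members passed in palbociclib against DMSO, 8 higher and 2 lower, ITGA6, LAMB2 and LAMB3 among them. Over all genes the calls rose as well, from 526 without the block to 2953 with it. The labels do not say what a replicate number marks.

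Compared directly, 7 of 28 members differed between the drugs, 3 higher in pimasertib and 4 lower. Over all tested genes 9.39% passed, 5.07% higher and 4.31% lower. ITGA6 was 7.39-fold lower in pimasertib than in palbociclib (log2 -2.89, SE 0.26, adjusted p = 0.000117), and it alone kept its call in every leave-one-out fit. ITGB8 was 4.54-fold lower (log2 -2.19, adjusted p = 0.00796), LAMB3 3.38-fold lower (log2 -1.76, adjusted p = 0.00327) and ITGA2 2.84-fold lower (log2 -1.50, adjusted p = 0.00767). ITGAV was 3.84-fold higher (log2 1.94, adjusted p = 0.00626), LAMB2 2.82-fold higher (log2 1.50, adjusted p = 0.0123) and ITGA3 2.19-fold higher (log2 1.13, adjusted p = 0.0383). In all 7 genes the libraries of the 2 drugs did not overlap.

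Most of these calls between the drugs were lost without 1 library. Without pimasertib replicate 1, the adjusted p was 0.104 for ITGA2, 0.0961 for ITGA3, 0.0562 for ITGAV, 0.11 for ITGB8 and 0.0661 for LAMB3. Without pimasertib replicate 2 it was 0.0749 for ITGA2, 0.275 for ITGA3, 0.0644 for ITGAV, 0.0597 for ITGB8 and 0.141 for LAMB2. Without palbociclib replicate 1 it was 0.252 for ITGA3 and 0.0654 for LAMB2, and without palbociclib replicate 2 it was 0.0643 for ITGA3.

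The promoter windows of the 3 members with the strongest fall and the 3 with the strongest rise in pimasertib, of those above 10 CPM with an entry, are shown so that the sequences upstream of genes that moved in opposite directions can be compared. They are the 250 bases before a RefSeq transcript start (GRCh38.p14), read 5′ to 3′ on the gene's strand, and 23 of the 31 members had an entry. ITGA3 had none, so LAMC1 takes the third place. Capitals mark matches to 3 motifs on either strand: AP-1 (TGACTCA), ETS (CCGGAAG) and the GC box (GGGCGG). The windows lie at chr2:172427086-172427335 for ITGA6, chr1:209652426-209652675 and chr1:209651375-209651624 for LAMB3 starts 1 and 3, chr5:52989102-52989351 for ITGA2, chr3:49133051-49133300 for LAMB2, chr2:186589806-186590055 for ITGAV and chr1:183023170-183023419 for LAMC1. ITGA6, ITGA2, ITGAV and LAMC1 lie on the plus strand, and LAMB3 and LAMB2 lie on the minus strand.
ITGA6 start 1: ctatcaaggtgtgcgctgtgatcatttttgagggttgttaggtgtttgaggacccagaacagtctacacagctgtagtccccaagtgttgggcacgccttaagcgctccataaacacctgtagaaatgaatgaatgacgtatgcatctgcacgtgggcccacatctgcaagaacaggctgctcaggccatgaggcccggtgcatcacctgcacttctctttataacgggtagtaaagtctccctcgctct
LAMB3 start 1: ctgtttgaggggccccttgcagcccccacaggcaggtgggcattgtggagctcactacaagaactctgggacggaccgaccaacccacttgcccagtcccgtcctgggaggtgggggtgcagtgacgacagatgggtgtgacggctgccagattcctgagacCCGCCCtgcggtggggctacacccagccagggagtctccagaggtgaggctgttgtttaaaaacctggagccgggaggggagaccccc
LAMB3 start 3: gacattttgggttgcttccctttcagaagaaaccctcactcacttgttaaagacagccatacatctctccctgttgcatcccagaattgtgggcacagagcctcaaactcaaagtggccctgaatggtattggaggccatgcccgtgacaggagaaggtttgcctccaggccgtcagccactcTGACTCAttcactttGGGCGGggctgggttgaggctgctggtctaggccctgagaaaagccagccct
ITGA2: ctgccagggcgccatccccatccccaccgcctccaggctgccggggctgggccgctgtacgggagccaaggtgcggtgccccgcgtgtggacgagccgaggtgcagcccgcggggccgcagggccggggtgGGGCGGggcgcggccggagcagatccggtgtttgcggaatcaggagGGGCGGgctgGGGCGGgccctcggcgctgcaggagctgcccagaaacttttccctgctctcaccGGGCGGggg
LAMB2: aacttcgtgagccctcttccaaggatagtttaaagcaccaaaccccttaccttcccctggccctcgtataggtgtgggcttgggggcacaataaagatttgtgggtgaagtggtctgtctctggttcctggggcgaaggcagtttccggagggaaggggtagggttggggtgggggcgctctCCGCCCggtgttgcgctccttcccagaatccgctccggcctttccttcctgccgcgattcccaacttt
ITGAV start 1: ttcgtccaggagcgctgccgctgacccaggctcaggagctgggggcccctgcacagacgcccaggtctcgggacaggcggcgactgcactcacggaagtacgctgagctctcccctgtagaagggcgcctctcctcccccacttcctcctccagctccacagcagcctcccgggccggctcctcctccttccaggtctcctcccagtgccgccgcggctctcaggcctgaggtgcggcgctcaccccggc
LAMC1: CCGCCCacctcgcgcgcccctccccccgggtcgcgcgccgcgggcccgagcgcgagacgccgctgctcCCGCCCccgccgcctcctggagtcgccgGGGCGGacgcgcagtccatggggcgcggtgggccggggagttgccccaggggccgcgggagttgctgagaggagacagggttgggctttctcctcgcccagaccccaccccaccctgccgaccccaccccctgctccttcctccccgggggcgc

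LAMB3 start 3, shown because it held a match, had an AP-1 match 67 bases before the start and a GC box 52 bases before it. The other shown windows held no AP-1 or ETS match. GC boxes numbered 4 in ITGA2, 3 in LAMC1 and 1 each in LAMB2 and LAMB3 start 1, with none in ITGA6 start 1 or ITGAV start 1. At ITGA6 start 2, not printed, there was an ETS match 159 bases before the start, and there were 3 GC boxes. Over all 23 matched members, 2 (LAMB3 and LAMA3) had an AP-1 match in any listed window, 3 (ITGA6, ITGB5 and LAMA5) an ETS match and 13 a GC box. Of 35116 windows of the same length over all genes, 4.2% held AP-1, 8.52% ETS and 42.6% a GC box. By window, the members had 2 of 30, 3 of 30 and 16 of 30. Which start these cells used is not known from gene counts, and a match is a run of letters, not a measured binding site.

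Downstream of the receptors, genes of other lists were tested in the same fit. Of the proteins that bind integrin tails inside the cell or activate them, 5 of 24 tested rose in pimasertib and none fell, with a median log2 difference of 0.24. These were 20.8% of the list, against 22.8% of all tested genes. TNS1 and TNS3, tensins that link integrin beta tails to actin, rose by log2 1.51 (SE 0.19, adjusted p = 0.000538) and 1.4 (SE 0.22, adjusted p = 0.00169). TNS1 was at 35.4 and 34.9 CPM in DMSO, 40.1 and 44.4 with palbociclib and 99.3 and 100.5 with pimasertib, with pimasertib above all others. DAB2, an endocytic adaptor of integrins, rose by log2 1.05 (adjusted p = 0.0108), with an adjusted p of 0.0782 without pimasertib replicate 1. Without that replicate the count was 2, and it was 3 without pimasertib replicate 2 or DMSO replicate 1.

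Of 24 focal adhesion signalling and scaffold genes, 4 rose and 5 fell in pimasertib, with a median log2 difference of -0.09. These were 37.5% of the list, against 22.8% of all tested genes. PTK2, the focal adhesion kinase, was at 138 and 125 CPM in DMSO, 164 and 139 with palbociclib and 55.0 and 54.9 with pimasertib. PXN, the scaffold paxillin, was at 566 and 519 CPM in DMSO, 476 and 485 with palbociclib and 203 and 225 with pimasertib. In both genes the pimasertib libraries were the lowest, by log2 -1.26 (SE 0.21, adjusted p = 0.00215) for PTK2 and -1.34 (SE 0.22, adjusted p = 0.00222) for PXN. NEDD9, a docking protein of the focal adhesion kinase, went from 0.365 and 1.28 CPM in DMSO to 13.3 and 13.0 in pimasertib (log2 4.01, SE 0.50, adjusted p = 0.000494). PAK1, a kinase downstream of RAC1, fell (log2 fold change -1.09, adjusted p = 0.012, and 0.123 without pimasertib replicate 2). TGFB1I1 and TES rose by log2 0.90 and 0.88 (adjusted p = 0.0102 and 0.015). Without DMSO replicate 1, the adjusted p of these last 2 was 0.0618 and 0.121, without pimasertib replicate 1 it was 0.068 and 0.0744, and without pimasertib replicate 2 that of TES was 0.0786. The list's count was 4 when DMSO replicate 1, pimasertib replicate 1 or pimasertib replicate 2 was left out.

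Of 20 laminin partners in the basement membrane and other laminin receptors, 7 rose and 1 fell in pimasertib. These were 40% of the list, against 22.8% of all tested genes, and the list's median log2 difference was 0.98. HSPG2, the proteoglycan perlecan, was at 60.3 and 82.2 CPM in DMSO, 120 and 187 with palbociclib and 601 and 705 with pimasertib. The groups did not overlap, and the pimasertib difference was log2 3.20 (SE 0.30, adjusted p = 9.88e-05). NID2, a nidogen that bridges laminin and collagen IV, rose by log2 2.71 (SE 0.31, adjusted p = 0.000287), and COL4A5, a collagen IV chain, by 2.22 (SE 0.36, adjusted p = 0.00211). UTRN, the dystrophin relative utrophin, fell (log2 fold change -1.06, adjusted p = 0.00798). It missed the threshold when pimasertib replicate 1 (adjusted p = 0.0683) or 2 (0.0691) was left out. Leaving out pimasertib replicate 2 gave a count of 3 for the list, leaving out DMSO replicate 2 gave 12, and testing unfiltered genes gave 14.

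Of 15 tested ligands of integrins other than laminins, 10 rose in pimasertib and none fell. These were 66.7% of those tested, against 22.8% of all tested genes, of which 11.1% were higher. The list's median log2 difference was 1.88, against 0.00 over all tested genes. NPNT was not analysed here, and 6 more of the 22 listed did not pass the filter. The 15 include POSTN, which passed the filter through pimasertib, the group in which it was highest. The count, share and median are therefore partly selected for a rise in pimasertib. With the stricter filter on low counts the list's count was 8. EDIL3, a secreted RGD protein, was at 1.58 and 5.0 CPM in DMSO, 3.74 and 11.4 with palbociclib and 213 and 180 with pimasertib (log2 5.91, SE 0.58, adjusted p = 0.000125). COL1A1, a collagen I chain, was at 1.82 and 6.70 CPM in DMSO, 5.13 and 48.6 with palbociclib and 282 and 281 with pimasertib. Its call (log2 6.06, SE 0.92, adjusted p = 0.00143) was lost without DMSO replicate 1 (adjusted p = 0.336) or DMSO replicate 2 (0.191), and also with no filter on low counts (0.169). POSTN, the matrix protein periostin, was at 0 and 0.135 CPM in DMSO, 0.0733 and 0 with palbociclib and 2.77 and 3.30 with pimasertib (adjusted p = 0.00623, and 0.0672 without pimasertib replicate 2), and it passed the filter through pimasertib. Without pimasertib replicate 2 the list's count was 6.

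Of 11 tested tetraspanins and other membrane partners, none rose and 2 fell in pimasertib, with a median log2 difference of 0.34. These were 18.2% of those tested, below the 22.8% of all tested genes. SEMA7A, a membrane-anchored semaphorin that binds integrins, was at 329 and 581 CPM in DMSO, 328 and 595 with palbociclib and 86.6 and 107 with pimasertib (log2 -2.23, SE 0.36, adjusted p = 0.00188). PLAUR, the urokinase receptor, fell by 1.87 on the log2 scale (SE 0.36, adjusted p = 0.00513, and 0.0687 without pimasertib replicate 1). Leaving out pimasertib replicate 1 gave a count of 1, and leaving out DMSO replicate 2 gave 6.

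In palbociclib no gene of these 5 lists passed in the edgeR fit of all 6 libraries with filtered genes and no replicate block. Over all tested genes 3.54% passed there. At an unadjusted p under 0.05 there were 2 adaptors, 2 focal adhesion genes, 8 laminin partners, 5 other ligands and 1 membrane partner, and DESeq2 called 3 laminin partners, 3 other ligands and none of the rest, and limma-voom called 0. Leaving out DMSO replicate 2 gave 3 laminin partners and 2 other ligands, and leaving out palbociclib replicate 1 gave 2 of each. For laminin partners the count was also 2 without DMSO replicate 1 and 1 without palbociclib replicate 2. When low counts were not filtered there were 4 laminin partners and 3 other ligands. With a replicate block there were 3 adaptors, 3 focal adhesion genes, 9 laminin partners, 3 other ligands and 3 membrane partners. Calls over all genes also rose under the block, from 526 to 2953.

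Between the drugs, 5 of 24 adaptors (20.8%), 4 of 24 focal adhesion genes (16.7%) and 5 of 20 laminin partners (25%) passed. So did 7 of 15 other ligands (46.7%) and 3 of 11 membrane partners (27.3%), where 9.39% of all tested genes passed. The 7 ligands include POSTN, which passed the filter through pimasertib, so their count is partly selected. They also include COL1A1, whose call held under 5 of 13 alternatives. When pimasertib replicate 1 or replicate 2 was left out, the counts were in each case 1 adaptor, 2 focal adhesion genes, 2 laminin partners, 5 other ligands and 0 membrane partners. Without palbociclib replicate 1 there were 2 adaptors and 2 laminin partners, and without palbociclib replicate 2 there were 3 adaptors and 9 laminin partners. Laminin partners numbered 9 when DMSO replicate 1 or replicate 2 was left out, and 10 when low counts were not filtered. The rule for named genes takes 17 of these, of which TNS1, NEDD9, PTK2, NID2, HSPG2 and EDIL3 kept their calls under every alternative. TNS1 was higher in pimasertib than in palbociclib by log2 1.24, NEDD9 by 3.21, NID2 by 2.51, HSPG2 by 2.09 and EDIL3 by 4.68, and PTK2 was lower, at -1.46.

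The replicates of each group differed from each other in the same direction over most members. In DMSO 26 of 28 tested members were higher in replicate 2, in palbociclib 25 of 28 and in pimasertib 24 of 28. Over all tested genes the shares higher in replicate 2 were 47.4%, 51.4% and 48.7%. The median log2 gap of the members was 0.66 in DMSO, 0.51 in palbociclib and 0.40 in pimasertib, on log2(CPM + 0.125). The gap was not shared by the intracellular adaptors, of which 5 of 24 were higher in DMSO replicate 2, with medians of -0.20, -0.17 and -0.25 in the 3 groups. It was shared by the membrane partners, of which 11 of 11 were higher in replicate 2 in DMSO and in palbociclib and 10 of 11 in pimasertib. In DMSO the other ligands (15 of 15, median 1.05) and the laminin partners (17 of 20, median 0.58) shared it too. The focal adhesion genes did not (7 of 24, median -0.16). Among the members ITGB4 had the largest gap in DMSO, at 2.33, and LAMA1 the lowest, at -0.55. The gap enters the spread against which each member's drug difference was tested, and its cause was not tested.

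**Figure D4:**
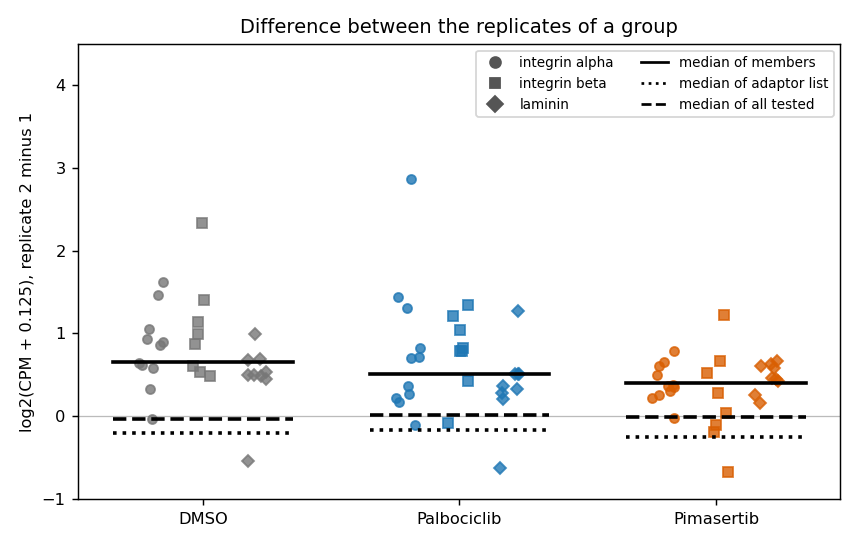
Log2(CPM + 0.125) of replicate 2 minus replicate 1 in each treatment for the 28 tested members, with lines for the median of the members, of the intracellular adaptor list and of all tested genes. The medians of the members (0.66, 0.51 and 0.40) lie above 0 in all 3 groups, and those of the adaptors (-0.20, -0.17 and -0.25) lie below it.

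The authors' deposited table called 7 members higher and 3 lower in pimasertib among 28 with an adjusted p. These 10 hold all 9 called here, and ITGB1 is the extra gene. For palbociclib the authors' deposited table called 1 of 23, ITGB8.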

How the data were processed

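RNA of 6 HT-1080 libraries was sequenced, and per the submitters' processing notes CASAVA, STAR 2.5, HTSeq 0.6.1 and DESeq2 were used with the builds hg19 and GRCh37. The order and settings of these steps, and whether counting used strand, are not given in the sources used here. The authors deposited 1 table per drug with raw read counts per gene, FPKM values, and, per the file headers, log2 fold changes and adjusted p-values of their own comparison with DMSO, used here only to count shared calls. The deposited FPKM equals count per gene length per library total, within 4.2e-06. The DMSO columns matched exactly between tables, and genes listed in 1 table were counted as 0 in the other.

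The test on the deposited counts used edgeR 4.0.16 (R 4.3.3): filterByExpr within groups (minimum count 10, minimum total 15), TMM scaling, 1 model of 3 groups over 6 libraries fitted with glmQLFit (robust), and two-sided glmQLFTest. P-values were adjusted by Benjamini-Hochberg over 14839 genes, with a threshold of 0.05. CPM divide a count by its library's TMM-scaled total. The floor of 3 counts and the interval of the pooled ITGA11 ratio cover counting error only. Intervals of log2 differences come from the quasi-likelihood fit and include its estimate of the spread between libraries. The scripts were tested on simulated data.

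The members, the 5 lists of related genes and the marker lists were chosen with earlier results of these data known. Values per library are given for members past the threshold in any comparison or with a mean of at least 10 CPM in any group. From each list, up to 3 genes per direction and comparison are named, those past the threshold with the largest change. Promoters are shown for at most 6 called members of at least 10 CPM, and LAMB3 start 3 was added after its match was seen. Alternatives were DESeq2 1.42.0, RLE scaling, limma-voom (limma 3.58.1), no filter, a minimum count of 30, 4 libraries only, a replicate block, and leaving out each library while keeping the same genes. A group left with 1 library is then assumed to vary like the others.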

Additional observations from a re-analysis of the deposited data

How the results depend on the processing

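With 2 libraries per group, every count of calls depends on single libraries. Leaving out each in turn, member calls ranged from 5 to 12 for pimasertib against DMSO, from 0 to 3 for palbociclib against DMSO and from 2 to 9 between the drugs. ITGA6, ITGAV, LAMB2 and LAMB3 kept their pimasertib calls under every alternative, 4 of 9, and ITGA6 alone did between the drugs, 1 of 7. For palbociclib against DMSO the count of 0 became 1 by DESeq2, 1 by limma-voom and 3 when low counts were not filtered. With the replicate block it became 10 (8 higher, 2 lower), with pimasertib against DMSO 19 and between the drugs 14. The 10 included ITGA6 (adjusted p = 0.00335), LAMB2 (0.000373) and LAMB3 (0.00482). Deviations of same-numbered libraries from their group means correlated at 0.397 (DMSO and palbociclib), 0.351 (DMSO and pimasertib) and 0.345 (both drugs) over 14839 genes, but 2 numbers are too few to establish pairs and the labels do not say what a number marks. Calls over all genes under the replicate block were 6551 for pimasertib against DMSO, 2953 for palbociclib against DMSO and 4702 between the drugs. Under it ITGA10 passed in pimasertib (log2 1.04, adjusted p = 0.000912) and palbociclib (0.0314), ITGA1 passed in both (0.0467 and 0.0384), and COL1A1 did not pass in pimasertib against DMSO (0.0643) or between the drugs (0.139). For palbociclib against DMSO it gave 3 adaptors, 3 focal adhesion genes, 9 laminin partners, 3 other ligands and 3 membrane partners. Over the named genes and all alternatives, 1345 values kept direction and side of the threshold, 62 passed only under the alternative, 77 no longer passed and 48 changed sign. The cause was not tested.

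Sign changes were in differences that did not pass. LAMA1 in pimasertib, -0.02, became 0.01 with DESeq2, RLE and limma-voom, 0.02 with no filter, the replicate block or 4 libraries, and 0.08 with the stricter filter. ITGAE between the drugs became 0.01 with the stricter filter. Leaving out 1 library, log2 differences from DMSO in pimasertib ranged from -0.16 to 1.32 for ITGA1, -0.38 to 0.68 for ITGA4, -1.20 to 0.22 for ITGB8, -0.26 to 0.28 for LAMA1 and -0.39 to 0.90 for LAMA2. ITGB8 passed as lower without DMSO replicate 1 (adjusted p = 0.0161). In palbociclib they ranged from -0.12 to 1.56 for ITGA1, -0.33 to 0.31 for ITGA2, -0.93 to 0.13 for ITGA4, -0.42 to 0.44 for ITGA5, -6.18 to 0.42 for ITGA7, -0.22 to 1.67 for ITGA10, -0.08 to 0.87 for ITGAV, -0.19 to 0.72 for ITGB1, -0.22 to 0.81 for ITGB2, -0.34 to 0.65 for ITGB5, -0.10 to 0.57 for LAMA1 and -0.02 to 0.48 for LAMC1. Between the drugs they ranged from -0.75 to 0.56 for ITGA1, -0.32 to 1.12 for ITGA10, -0.23 to 0.13 for ITGAE, -0.07 to 0.35 for ITGB3, -0.54 to 0.08 for LAMA1, -0.76 to 0.52 for LAMA3, -0.32 to 0.31 for LAMA4 and -0.04 to 0.48 for LAMB1.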
